A study of Mus musculus with 9 samples.

Results

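The core enzymes of glycolysis other than phosphofructokinase and enolase were followed here across 3 groups of mouse plantar epidermal basal cells. Members were the rows of the gene table named Hk1, Hk2, Gpi1, Aldoa, Tpi1, Gapdh, Pgk1, Pgam1, Pkm or Ldha. These 10 names matched 11 of the 22399 rows, because Aldoa is listed under a pair of Ensembl identifiers. Rows were matched by gene name, without use of a measured value, but the members were chosen with earlier results of these data known. RNA sequencing had been run on 9 libraries, 3 from each group, and the values are FPKM, counted fragments scaled to gene length and library depth. All mice were wild-type C57BL/6. The control mice were 5 months old and on a normal diet, the mice labelled HFD were 5 months old and fed a high fat diet, and the aged mice were 24 months old with no diet stated. Age and any difference in diet between aged and control mice cannot be told apart from the labels. In every group the sequenced cells were CD49f-positive, CD34-negative cells sorted from trypsinized plantar skin, the fraction that holds the interfollicular basal keratinocytes. The labels do not say whether the 3 libraries of a group came from separate animals or from pools, so the p-values measure only the spread between these libraries. In such bulk samples fewer cells of a type and less RNA per cell cannot be told apart.

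Glycolysis splits glucose into pyruvate in the cytosol. Hexokinases (Hk1, Hk2) phosphorylate glucose on entry, glucose-6-phosphate isomerase (Gpi1) turns the product into fructose 6-phosphate, and after the phosphofructokinase step aldolase (Aldoa) cleaves the sugar into a pair of triose phosphates that triose phosphate isomerase (Tpi1) interconverts. The payoff steps follow: Gapdh oxidises glyceraldehyde 3-phosphate and reduces NAD+, Pgk1 makes the first ATP of the payoff phase, Pgam1 moves the remaining phosphate ahead of enolase, pyruvate kinase (Pkm) makes the second ATP, and lactate dehydrogenase A (Ldha) reduces pyruvate to lactate and returns NAD+. The epidermis has no vessels of its own and is known for making much lactate from glucose. Many of these genes are textbook targets of the hypoxia-inducible factors, which bind the letters ACGTG or GCGTG.

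Library depth, estimated from the size of a single read in the FPKM values, was 23.6 to 35.8 M counted fragments per library, and the lowest value was that of control replicate 2. Krt5 and Krt14, the basal keratin pair, averaged 11662 and 12461 FPKM over the 9 libraries. Cd34 reached at most 0.0671 FPKM in any library.

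Pkm and Ldha were the most abundant members, and Hk2 and the second Aldoa row the least abundant. Mean FPKM over the 9 libraries fell in the order Pkm (245), Ldha (225), Aldoa (182), Tpi1 (132), Gapdh (77.9), Gpi1 (58.1), Pgk1 (54.1), Pgam1 (26.1), Hk1 (25.0), Hk2 (7.55) and the second Aldoa row (2.29). Among neighbours in this order, the library ranges of Pkm and Ldha overlapped, as did those of Gpi1 and Pgk1 and those of Pgam1 and Hk1, so these 3 neighbouring pairs were not separated. Every other neighbouring pair had ranges that did not overlap. Pkm and Ldha made up 23.7% and 21.7% of the summed FPKM of the 11 rows.

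**Figure D1:**
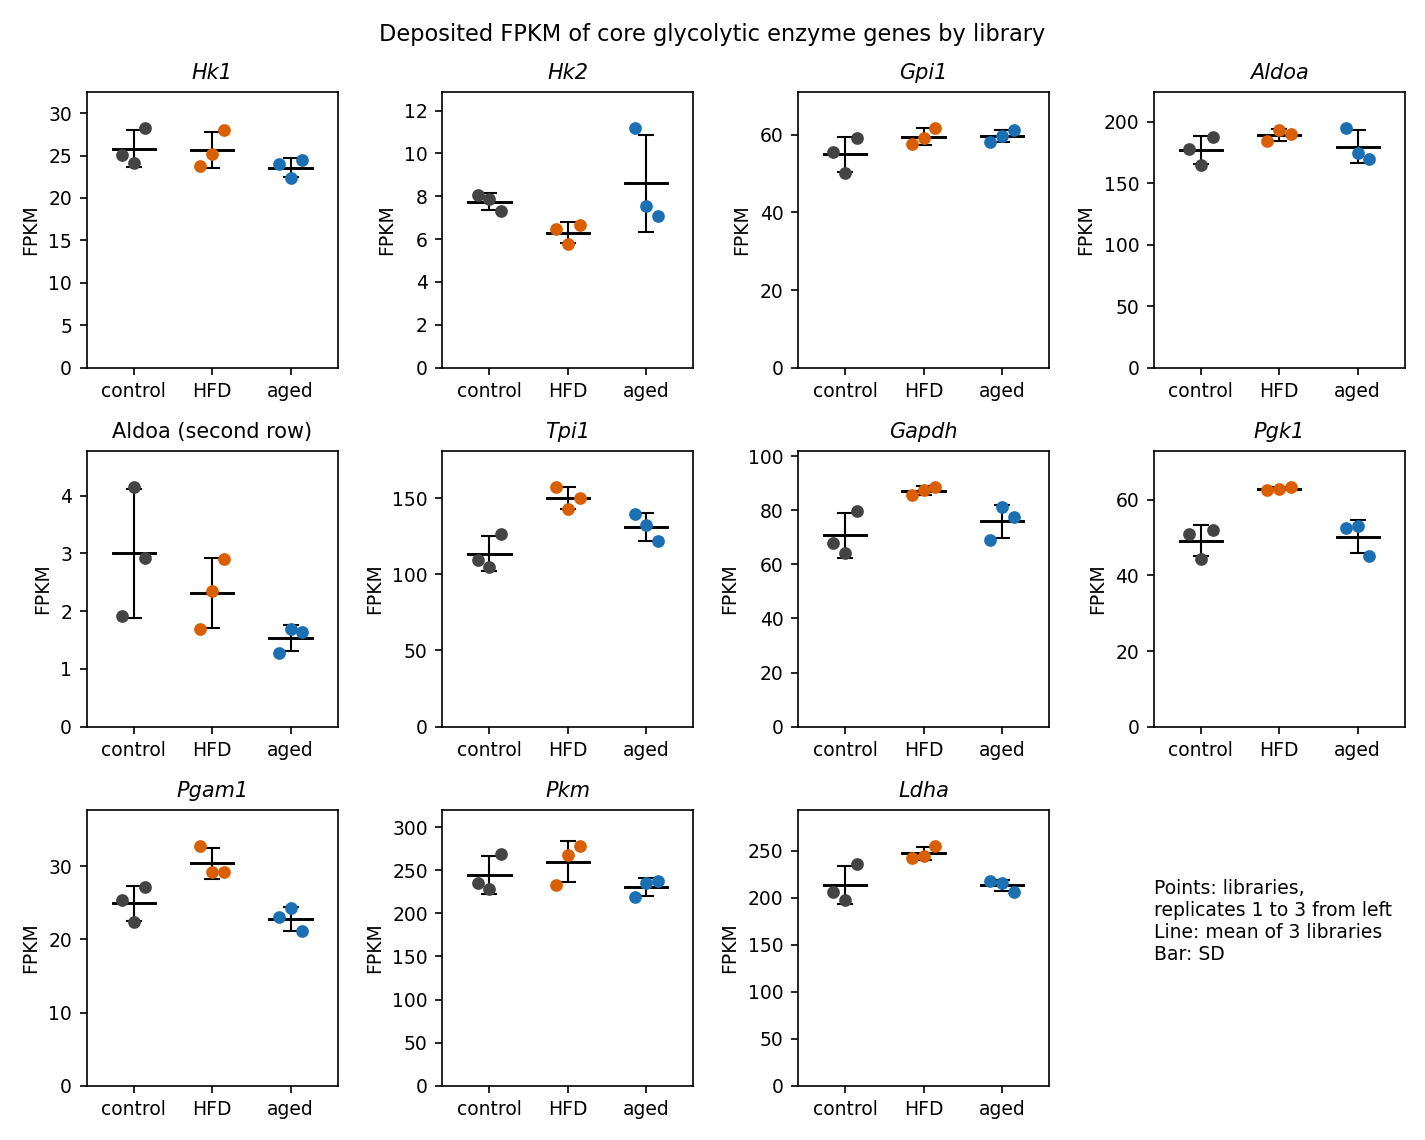
FPKM of each core glycolytic enzyme, 1 panel a gene with its own axis from 0, in control, HFD and aged libraries; points are libraries, lines are means and bars are SD (n = 3). Pkm and Ldha run from 198 to 278 FPKM, and Hk2 runs from 5.76 to 11.2 FPKM.

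The level of Gapdh, the classical reference gene, depends most on how gene length is counted. The FPKM values match the merged exons of all annotated transcripts, which for Gapdh span 4133 bases against 1420 bases for its principal transcript. Per length of the principal transcript its mean level was 227 FPKM in place of 77.9 FPKM, a ratio of 2.91 and the highest among the members. On that scale Gapdh moved from rank 5 to rank 4, just above Tpi1 at 225 FPKM, and Hk1 (55.4 FPKM) passed Pgam1 (29.1 FPKM), while the order of the other members was the same. A second property concerns copies: 82.5% of the 50-base stretches of the principal Gapdh transcript also occur in transcripts of other annotated genes. Of the 218 genes that share such a stretch with any Gapdh transcript, 213 are pseudogenes. The share was 68.0% for Pgk1, 41.5% for Pgam1 and 34.4% for Pkm. It was 19.3% or less for the other members and 0 for Hk1, Hk2 and the second Aldoa row. For Pkm part of the share comes from a gene annotated over its own locus. Counted over all Pkm transcripts, 25.8% of stretches occurred in another gene and 14.2% in a gene outside the locus. How reads that fit several places were counted is not given in the sources used here, so the levels of Gapdh, Pgk1 and Pgam1 relative to the other enzymes are uncertain. The protein isoforms of Pkm, which differ by one alternative exon, share a row and were not told apart.

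**Figure D2:**
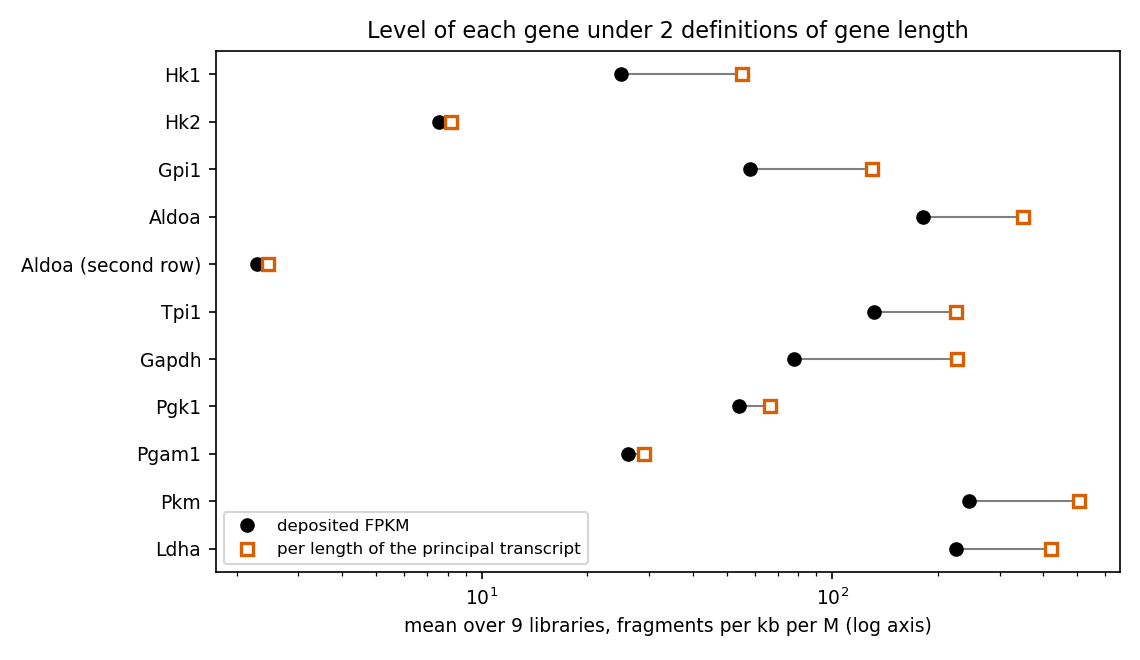
Mean level of each gene over 9 libraries (log axis, in FPKM units) as deposited (filled circles) and rescaled to the length of its principal transcript (open squares). The shift is largest for Gapdh, from 77.9 to 227, and small for Hk2, Pgam1 and the second Aldoa row.

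High fat diet was compared with normal diet at the same age, to ask how the diet changed the enzymes. Consecutive steps of the triose part of the pathway rose: Tpi1, Gapdh and Pgk1 were higher in HFD than in control. On GRCm38, Tpi1 (ENSMUSG00000023456) lies at chr6:124810586-124814296 and Gapdh (ENSMUSG00000057666) at chr6:125161715-125166467, both on the minus strand, and Pgk1 (ENSMUSG00000062070) at chrX:106187100-106203699 on the plus strand. In Tpi1 the control libraries had 109.6, 105 and 126 FPKM and the HFD libraries 157, 143 and 150.1 FPKM. All 3 HFD libraries lay above all 3 control libraries. Group means were 114 ± 11.3 and 150.1 ± 7.31 FPKM (SD, n = 3 each), a log2 fold change of 0.40 ± 0.09 (SE, limma adjusted p = 0.0108). For Gapdh, control libraries had 68.0, 64.1 and 79.8 FPKM and HFD libraries 85.6, 87.6 and 88.6 FPKM. The groups did not overlap, and the HFD libraries were closer together (SD 1.52) than the control libraries (SD 8.17). The log2 fold change of Gapdh was 0.31 ± 0.09 (limma adjusted p = 0.0369). Pgk1 stood at 51.1, 44.4 and 52.0 FPKM in control and at 62.6, 62.8 and 63.4 FPKM in HFD. Again the groups were apart, and the log2 fold change was 0.35 ± 0.08 (limma adjusted p = 0.0168).

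Across the family, 3 of the 11 rows were higher and 0 lower in HFD by limma at an adjusted p under 0.05, and at an unadjusted p under 0.05 the counts were 5 and 0. Over all 10367 genes tested, 8.26% were called higher, 8.76% lower and 17.0% in either direction; the members' share of higher calls is above the background but rests on 11 rows. The median log2 fold change of the members was 0.12, against 0.01 over all genes tested. Library ranges of HFD and control did not overlap in 6 of the 11 rows, against 40.4% of all genes tested. With each library scaled to its total FPKM, 598 genes were called higher and 1165 lower, in place of 856 and 908. Of the 3 calls, that of Tpi1 was made under each of 21 alternative settings, with adjusted p-values up to 0.0495. The call of Gapdh was lost in 7 settings: without control replicate 1 (adjusted p = 0.0929), control replicate 2 (0.136), HFD replicate 1 (0.081), HFD replicate 2 (0.095) or HFD replicate 3 (0.0938), when low values were not filtered (0.0699) and with scaling to total FPKM (0.0552). Pgk1 lost its call without control replicate 2 (adjusted p = 0.067) or HFD replicate 2 (0.0508).

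The later steps and the early ones after hexokinase had HFD values of the same sign that missed the threshold. Pgam1 (ENSMUSG00000011752), at chr19:41911923-41918660 on the plus strand, had 25.3, 22.4 and 27.2 FPKM in control and 32.8, 29.2 and 29.2 FPKM in HFD, with a log2 fold change of 0.28 ± 0.09 (limma adjusted p = 0.0507). Ldha had 206, 198 and 236 FPKM in control and 242, 245 and 255 FPKM in HFD, with a log2 fold change of 0.22 ± 0.08 (adjusted p = 0.0707). In both genes every HFD library was above every control library. Without control replicate 3, the highest control library in 9 of the 11 rows, both passed the threshold (adjusted p = 0.043 for Pgam1 and 0.0259 for Ldha), and Pgam1 did so without aged replicate 3 as well (0.039). Pkm had 236, 229 and 269 FPKM in control against 233, 268 and 278 FPKM in HFD (log2 fold change 0.09, 95% interval -0.11 to 0.28). Aldoa (0.10, interval -0.07 to 0.26) and Gpi1 (0.12, interval -0.04 to 0.27) likewise had HFD libraries within or near the control range. After a correction for the GC content of each gene, 5 members were called higher, Tpi1 (0.47), Gapdh (0.35), Pgk1 (0.34), Pgam1 (0.33) and Ldha (0.24 on the log2 scale), while the number of all genes called fell from 1764 to 1162.

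The hexokinases did not share this direction. Hk1, the widely expressed isoform, had 25.1, 24.1 and 28.2 FPKM in control and 23.8, 25.2 and 28.0 FPKM in HFD (log2 fold change -0.01, 95% interval -0.19 to 0.17). Hk2, the regulated isoform of growing and insulin-responsive tissues, had 8.05, 7.88 and 7.32 FPKM in control and 6.47, 5.76 and 6.68 FPKM in HFD. Its groups did not overlap, with HFD the lower, but the difference missed the threshold (log2 fold change -0.26 ± 0.13, limma adjusted p = 0.19). Aged replicate 1 stood apart at 11.2 FPKM in the shared model; without that library the standard error fell to 0.08 and the same difference just passed (adjusted p = 0.0493), the only one of 21 settings that called it; with only the 6 control and HFD libraries it did not (0.0529).

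**Figure D3:**
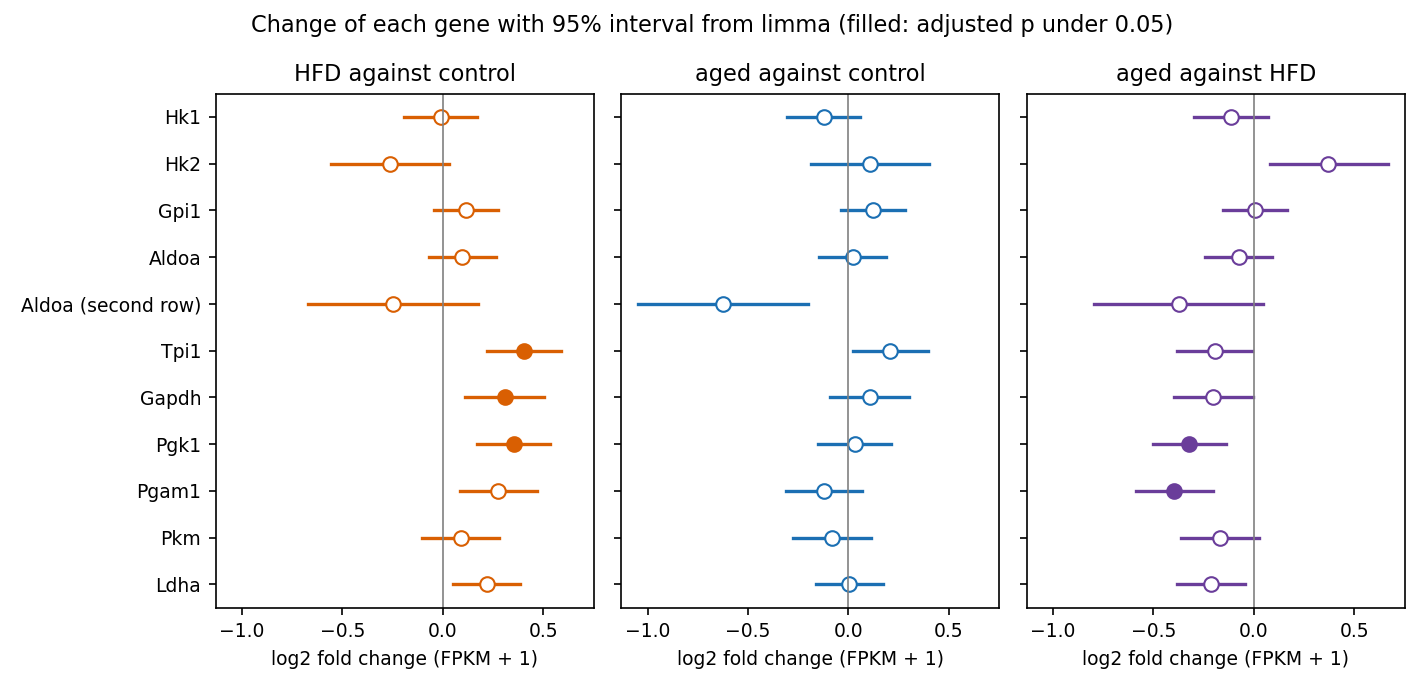
Log2 fold change with its 95% interval (limma, 3 libraries a group) of each core glycolytic enzyme for HFD and for aged, each over control, and for aged over HFD. Tpi1, Gapdh and Pgk1 are called higher in HFD, none is called in aged against control, and Pgk1 and Pgam1 are called lower in aged than in HFD.

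Promoters are shown for Pgk1, Pgam1, Gapdh, Ldha and Hk2, the members whose first listed promoter holds ACGTG or GCGTG on either strand. The first listed promoters of Hk1, Gpi1, Aldoa, Tpi1 and Pkm hold neither. Other listed promoters of Hk1, Aldoa and Pkm do, so 8 of the 10 members have a match in some listed promoter. Each stretch is the 250 bases before the start of the first listed RefSeq transcript (GRCm38.p6), 5′ to 3′ on the gene's strand. Every ACGTG or GCGTG on either strand is in capitals.
Pgk1, chrX:106186850-106187099 (plus strand): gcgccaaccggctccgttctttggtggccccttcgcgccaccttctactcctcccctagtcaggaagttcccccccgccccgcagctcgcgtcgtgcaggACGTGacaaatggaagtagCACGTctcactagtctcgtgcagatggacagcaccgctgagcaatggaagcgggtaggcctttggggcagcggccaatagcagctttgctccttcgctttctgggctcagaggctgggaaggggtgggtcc
Pgam1, chr19:41911621-41911870 (plus strand): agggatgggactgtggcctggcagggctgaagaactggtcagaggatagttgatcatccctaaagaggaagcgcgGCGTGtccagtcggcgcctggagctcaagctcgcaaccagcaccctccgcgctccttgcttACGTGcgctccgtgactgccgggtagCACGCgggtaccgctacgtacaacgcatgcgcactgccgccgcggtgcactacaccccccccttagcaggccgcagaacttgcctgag
Gapdh, chr6:125165774-125166023 (minus strand): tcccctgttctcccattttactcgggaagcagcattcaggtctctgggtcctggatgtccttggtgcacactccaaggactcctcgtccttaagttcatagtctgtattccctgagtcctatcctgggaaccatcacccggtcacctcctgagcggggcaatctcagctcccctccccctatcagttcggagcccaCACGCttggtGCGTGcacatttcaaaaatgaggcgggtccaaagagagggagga
Ldha, chr7:46845554-46845803 (plus strand): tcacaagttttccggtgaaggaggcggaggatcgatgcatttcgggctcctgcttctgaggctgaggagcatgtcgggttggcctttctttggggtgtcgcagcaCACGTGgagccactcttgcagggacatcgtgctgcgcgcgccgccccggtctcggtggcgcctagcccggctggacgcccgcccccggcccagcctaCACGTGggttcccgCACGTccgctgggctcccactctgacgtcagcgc
Hk2, chr6:82774455-82774704 (minus strand): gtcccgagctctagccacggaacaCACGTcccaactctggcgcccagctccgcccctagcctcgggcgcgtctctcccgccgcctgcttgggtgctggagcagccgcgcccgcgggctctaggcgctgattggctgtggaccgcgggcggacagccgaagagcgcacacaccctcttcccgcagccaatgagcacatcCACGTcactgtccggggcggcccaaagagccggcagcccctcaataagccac
Counting both strands, with overlapping matches counted separately, Ldha holds 5 matches at 3 separate places, Pgam1 holds 3, and Pgk1, Gapdh and Hk2 hold 2 each. A second listed Ldha promoter, at chr7:46846832-46847081, holds 1. The bases that follow the Ldha and Pgam1 stretches shown were not found in a transcript of the gene in the reference annotation. Those that follow the other listed promoters were. A match was present in 10 of the 15 promoters listed for the members and in 38.6% of the 32851 promoters of the reference. The 15 are not all separate: the Aldoa stretches at chr7:126799255-126799504 and chr7:126799179-126799428 overlap and hold the same match. The promoter of Tpi1 has no match in this window, which runs into an annotated exon and is not shown. Whether the letters go with the HFD values of the members was not tested. A match describes letters only and is not evidence of a bound site.

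Aged mice were then compared with the younger control mice. No member was called: 0 of 11 rows were higher and 0 lower by limma, and at an unadjusted p under 0.05 the counts were 1 and 1. Over all genes tested, 4.01% were called higher and 3.74% lower, 7.76% in either direction. With each library scaled to its total FPKM these counts were 358 higher and 507 lower, in place of 416 and 388. The median log2 fold change of the members was 0.02, against -0.01 over all genes. The control and aged ranges were apart in 1 of 11 rows, against 27.8% of all genes tested.

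Tpi1 had the largest positive difference with age, at 139, 132 and 121.6 FPKM in aged libraries, a log2 fold change of 0.21 ± 0.09 over control (limma adjusted p = 0.15). The lowest aged library was under the highest control library. Ldha was at 218, 215 and 206 FPKM, a log2 fold change of 0.00 with a 95% interval of -0.16 to 0.17. For Pgk1 (52.5, 53.2 and 45.2 FPKM) the interval was -0.15 to 0.21, and for Aldoa (195, 174 and 169.95 FPKM) it was -0.15 to 0.19. Set against the gene's own HFD value, the upper bound was below it for Ldha (0.22) and Pgk1 (0.35) and above it for Aldoa (0.10). The bound was also below the HFD value for Pgam1 (0.07 against 0.28). It was just below for Tpi1 (0.394 against 0.403) and Gapdh (0.299 against 0.307), and above for the remaining rows. The HFD values have errors of their own, so this is not a test of a difference between age and diet. Pkm (219, 236 and 237 FPKM), Hk1 (24.0, 22.3 and 24.4 FPKM) and Pgam1 (23.1, 24.3 and 21.1 FPKM) had negative values of -0.08, -0.12 and -0.12, none past the threshold. Gpi1 (58.1, 59.8 and 61.3 FPKM) and Gapdh (69.1, 81.1 and 77.5 FPKM) had values of 0.12 and 0.10. Hk2 was spread widely in aged libraries, at 11.2, 7.54 and 7.06 FPKM, and its log2 fold change of 0.11 turned to -0.08 without aged replicate 1.

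The second Aldoa row had the largest negative value with age. This row (ENSMUSG00000114515) covers chr7:126800790-126809108 on the minus strand of GRCm38, directly upstream of the main Aldoa gene at chr7:126795234-126800751 on the same strand, and the annotation calls it protein coding. Control libraries had 1.92, 4.15 and 2.93 FPKM, HFD libraries 1.69, 2.36 and 2.91 FPKM and aged libraries 1.28, 1.69 and 1.63 FPKM. Every aged library was below every control library. The log2 fold change of aged against control was -0.62 ± 0.19 (limma adjusted p = 0.071), on an estimated 34 to 80.1 fragments a library, against 11598 or more for the main gene. The difference passed the threshold without control replicate 1 (-0.83, adjusted p = 0.0241) and with the replicate number as a block (adjusted p = 0.0194). Whether reads from the main gene's upstream exons fall in this row was not tested.

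Aged and HFD libraries were compared directly; this comparison shares the HFD libraries with the first. Pgam1 and Pgk1, enzymes of the payoff phase, were lower in aged, Pgam1 with a log2 fold change of -0.40 ± 0.09 (limma adjusted p = 0.0198) and Pgk1 with -0.32 ± 0.08 (adjusted p = 0.0377). In both, all 3 aged libraries lay below all 3 HFD libraries. Ldha (-0.21, adjusted p = 0.112), Gapdh (-0.20, 0.19) and Tpi1 (-0.19, 0.188) also had groups that did not overlap, with aged the lower, and missed the threshold. Hk2 had the opposite sign, at 0.37 ± 0.13 (adjusted p = 0.114), and all aged libraries exceeded all HFD libraries, while Gpi1 was at 0.01. In the whole family 0 rows were higher and 2 lower by limma, and at an unadjusted p under 0.05 the counts were 1 and 5. Among all genes tested 3.54% were called higher, 4.45% lower and 7.99% in either direction. Library ranges were apart in 6 of 11 rows, against 29.8% of all genes. The call of Pgam1 was lost without HFD replicate 1 (adjusted p = 0.0704), aged replicate 1 (0.0515) or aged replicate 3 (0.0512). That of Pgk1 was lost without any one of HFD replicates 1, 2 and 3 (0.0863, 0.103 and 0.108), aged replicate 1 (0.0626) or aged replicate 3 (0.085), with quantile normalization (0.0594) and without the filter on low values (0.0667).

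Over the 3 groups together, an F test of the group means called Tpi1 (adjusted p = 0.0202), Pgk1 (0.0204) and Pgam1 (0.0214), 3 of the 11 rows against 20.4% of all genes tested, a share near the background. Summed over the 11 rows, the enzymes made up 0.326% ± 0.0196 of the FPKM total of control libraries, 0.359% ± 0.012 of that of HFD libraries and 0.323% ± 0.00116 of that of aged libraries (SD, n = 3 each). The HFD libraries were the highest group in this sum, at 1088 to 1154 FPKM, against 914 to 1076 in control and 974 to 1010 in aged libraries. Libraries also differed within a group in the same way for most members: control replicate 2 was the lowest control library in 9 of 11 rows and control replicate 3 the highest in 9, while HFD replicate 1 was the lowest HFD library in 8 and HFD replicate 3 the highest in 8.

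**Figure D4:**
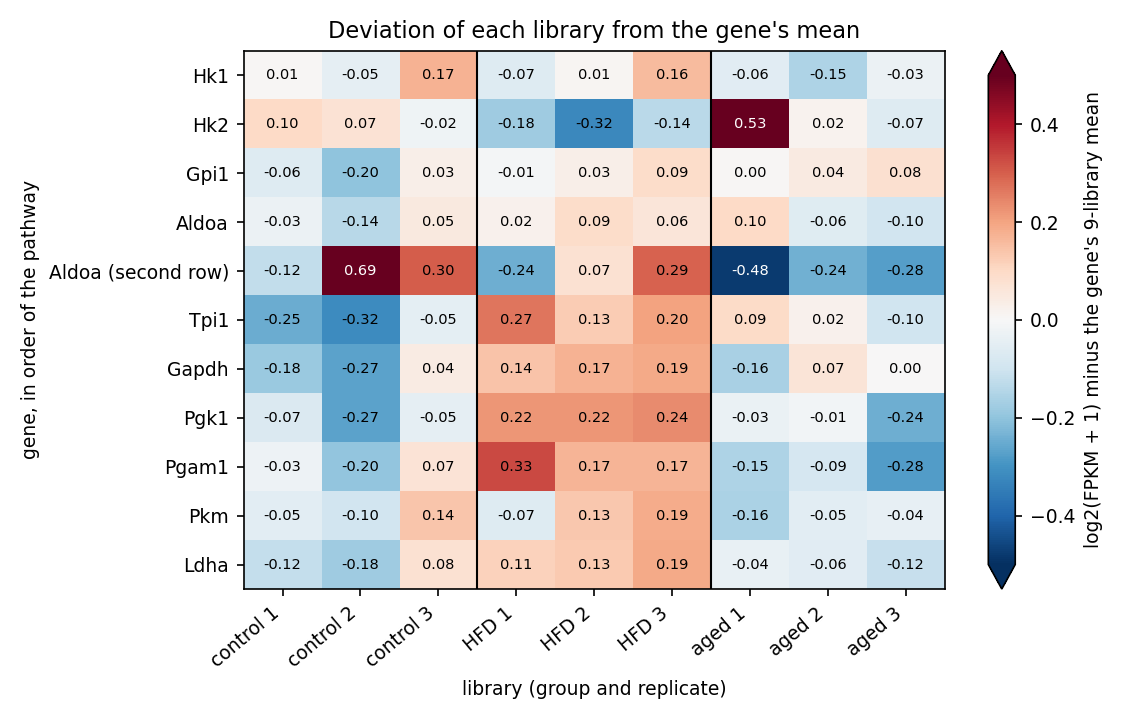
Deviation of each library from the gene's mean over 9 libraries, on the log2(FPKM + 1) scale, for the 11 rows in pathway order. Tpi1, Gapdh, Pgk1, Pgam1 and Ldha are above their means in all 3 HFD libraries; Hk2 stands out at 0.53 in aged replicate 1 and the second Aldoa row at 0.69 in control replicate 2.

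Annotated neighbours overlap the members' exons only in part. Hk1 shares 157 exonic bases with the antisense gene Hk1os, Gpi1 shares 741 bases with a noncoding gene on the opposite strand, and Pkm shares 767 bases with an unclassified gene on its own strand. Overlaps of 25 bases (Aldoa with Fam57b), 34 bases (Tpi1 with Spsb2) and 68 bases (Gapdh with Iffo1) are small beside the genes. The library kit keeps strand, but the strand setting of the counting is not given in the sources used here.

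Isoforms that catalyse the same steps were low, apart from Ldhb, which averaged more than the member Hk2 (7.55 FPKM). Of 13 such genes 3 reached a mean of 1 FPKM: Ldhb, the heart-type lactate dehydrogenase, at 10.2 FPKM, Aldoc, the brain-type aldolase, at 2.79 FPKM, and Gapdhs, the sperm-type enzyme, at 1.06 FPKM. Pgk2, Pklr and Ldhc were listed at 0 in all libraries. Aldoc rose with age, from 2.52, 1.83 and 2.14 FPKM in control and 2.19, 2.28 and 1.98 in HFD to 4.67, 3.03 and 4.45 FPKM in aged libraries. Its log2 fold change of aged against control was 0.66 ± 0.14 (limma adjusted p = 0.0165), lost without control replicate 2, control replicate 3 or aged replicate 1 (highest adjusted p 0.0674). Ldhb had values of 0.59 over control (adjusted p = 0.0715) and 0.48 over HFD (0.135) in aged libraries.

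The steps between the members gave mixed directions. Among the 6 phosphofructokinase and enolase genes that could be tested, 1 was higher and 1 lower in HFD, and in aged against control 2 rose and 1 fell. Shares called higher and lower over all genes tested were 8.26% and 8.76% in HFD, and 4.01% and 3.74% in aged against control. The HFD calls were Eno1, lost in 9 of 21 settings, and Eno3, lost in 8, and in both these include leaving out control replicate 1 or 2 or any HFD replicate (adjusted p up to 0.143 and 0.0966). The fall in aged libraries was that of Eno1, lost in 8 settings, which include leaving out control replicate 1 or 3, HFD replicate 2 or aged replicate 1 or 2 (adjusted p up to 0.11). Eno1, the main enolase, averaged 54.0 FPKM in control libraries, 64.5 in those of HFD and 43.5 in aged ones. It was the step gene after Pgam1 and had the same order of groups, with aged below HFD by a log2 fold change of -0.56 ± 0.08 (limma adjusted p = 0.00233). Eno1b, a near-identical copy of Eno1, rose in aged libraries (0.111 to 9.84 FPKM, adjusted p = 0.00198); reads of the copies may be split between them, and both levels are uncertain. Pfkm, the muscle-type phosphofructokinase, was 0.36 ± 0.09 higher in aged than in control (adjusted p = 0.0287, up to 0.104 in 6 settings, which include leaving out control replicate 1 or 2 or aged replicate 1 or 2). Of 9 regulators of flux, HFD cells had 1 higher and 2 lower, and aged cells 1 higher than control. Fbp2, fructose bisphosphatase of the reverse direction, was the one that rose, from 0.278 FPKM in control to 7.50 in HFD and 7.12 in aged libraries (adjusted p = 3.6e-05 and 2.37e-05). Adpgk, the ADP-dependent glucokinase, fell in HFD by 0.79 on the log2 scale (adjusted p = 0.00236).

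Of 8 transport genes tested, 3 rose and 2 fell in HFD, where 8.26% of all genes tested were called higher and 8.76% lower. Slc16a1, a lactate carrier, also had its highest mean in HFD: means were 29.2, 37.2 and 29.0 FPKM for control, HFD and aged libraries, with a rise in HFD of 0.34 ± 0.07 (limma adjusted p = 0.00836). Slc16a3, the other main lactate exporter, rose in HFD (0.59, adjusted p = 0.012, but 0.0524 without control replicate 2) and in aged (0.85, adjusted p = 0.00358) against control. Slc2a4, the insulin-responsive glucose carrier, fell in HFD by 0.63 (adjusted p = 0.0142, lost without the filter on low values) and Slc2a8 by 0.43 (adjusted p = 0.0162, up to 0.289 in 4 settings, which include leaving out control replicate 3 or HFD replicate 3). Other glucose carriers went the other way: Slc2a12 was higher in HFD (0.49, limma adjusted p = 0.0175). Slc2a1, the most abundant of those listed at 87.7 FPKM, had a value of 0.24 that missed the threshold (adjusted p = 0.0586). How far the call of Slc2a12 depends on the settings is not given here. Where pyruvate enters mitochondria, 1 of 12 genes tested rose and 1 fell in HFD. The calls were Pdha1, lost in 9 of 21 settings with each single control or HFD library left out among them (adjusted p up to 0.104), and Pcx, lost in 8, among them control replicate 2 or 3 or any HFD replicate left out (up to 0.128). Pdk1, the kinase that holds pyruvate dehydrogenase inactive, was 0.39 ± 0.07 higher in aged than in control (adjusted p = 0.00881). None of 7 pentose phosphate genes and none of 9 genes of the cytosolic NADH shuttles was called in any comparison by limma. Calls in either direction made up 17.0% of all genes tested in HFD against control. They made up 7.76% in aged against control and 7.99% in aged against HFD. In lists this small the lack of a call says little. At an unadjusted p under 0.05, 1 of the 7 was higher in each of the 3 comparisons. Of the 9, 1 was lower in each and 1 higher in both comparisons with aged. Of 10 genes of glycogen and UDP-glucose tested, Ugp2 rose in HFD (0.38 ± 0.08, adjusted p = 0.0115, lost with a GC correction at up to 0.108) and no other was called.

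Hypoxia-inducible factors and their targets outside glycolysis were tabulated because many of the members are textbook targets of the same factors. Of 19 tested, HFD cells had 5 higher and 1 lower, and aged cells 4 higher and 0 lower than control (7 higher and 2 lower at an unadjusted p under 0.05, and 8 and 1 in HFD). Over all genes tested, 8.26% were called higher and 8.76% lower in HFD, and 4.01% and 3.74% in aged. In HFD 11 of the 19 had positive values, against 51.5% of all genes. The gene called lower in HFD was Egln2, a prolyl hydroxylase (-0.49, limma adjusted p = 0.0111), and how far its call depends on the settings is not given here. Bnip3, a mitophagy receptor, rose from 7.90 to 13.5 FPKM in HFD (log2 fold change 0.71, limma adjusted p = 0.00316), Egln3, an oxygen-sensing prolyl hydroxylase, by 0.57 (adjusted p = 0.00406) and Ndrg1, a stress-induced gene, by 0.43 (adjusted p = 0.00899). In aged against control, Ndrg1 (0.49, adjusted p = 0.00821) and Bnip3 (0.53, adjusted p = 0.0202, but up to 0.0802 in 4 settings, which include leaving out control replicate 2 or 3 or aged replicate 1) rose too, while no glycolytic member was called. Hif1a itself was 0.31 higher in HFD (adjusted p = 0.0363), a call lost in 11 settings, each single control or HFD library left out among them, with an adjusted p of up to 0.173, and was 0.43 lower in aged than in HFD on the log2 scale (adjusted p = 0.0149, lost without HFD replicate 3).

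By profile over the 9 libraries, the 5 genes nearest to Tpi1 were Ugp2, Spop, Gdi2, Psat1 and Fopnl, among 5649 candidates whose group means ranged at least 50% as far. The measure was the mean absolute difference of centred log2(FPKM + 1) values, which was 0.043, 0.044, 0.047, 0.047 and 0.048 for these genes and 0.233 for the median candidate. None of the 5 is a glycolytic enzyme.

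Markers of other cells moved with the groups in part. Sweat gland markers summed to 43.8 to 52.6 FPKM in HFD libraries, against 27.3 to 29.9 in control and 29.1 to 32.9 in aged libraries. Of the 9 genes in that list 4 averaged at least 1 FPKM. The gland keratins Krt8, Krt18 and Krt19 stayed at or under 0.706 FPKM, and Foxa1 was listed at 0. Ehf, Acta2 and Slc12a2 were called higher in HFD than in control. Foxc1, the other gene that averaged at least 1 FPKM, had a negative HFD value (-0.19, limma adjusted p = 0.439). Aqp5 averaged 0.586 FPKM in HFD and 0.957 FPKM in control libraries. Suprabasal keratinocyte markers summed to 6480 to 8947 FPKM in HFD, 6735 to 8486 in control and 8206 to 11264 in aged libraries. Tgm3 was called higher in HFD than in control (0.53, limma adjusted p = 0.00521) and lower in aged than in HFD (-0.50, adjusted p = 0.0097). Krt1 was called higher in aged than in control (0.61, adjusted p = 0.0198). No other gene of that list was called. Mean Krt10 was 4478 FPKM in HFD and 3865 in control, and mean Krtdap was 1487 and 2023. In the fibroblast list 1 of 6 genes, Dcn, averaged at least 1 FPKM, and the sum was 1.50 to 2.55 in HFD, 4.51 to 6.64 in control and 3.48 to 4.45 in aged libraries. Hair follicle bulge markers summed to 214 to 307 FPKM in HFD, 182 to 263 in control and 168 to 217 in aged libraries. Most of the sum was Krt24 and Postn. Of the 6 genes 4 averaged at least 1 FPKM, and Cd34 and Lgr5 did not. In aged against control, Krt24 had a negative value (-0.43, limma adjusted p = 0.105). Sox9 was called higher in that comparison (0.64, adjusted p = 0.0226), and Lhx2 had a positive value (0.29, adjusted p = 0.306). Postn was higher in HFD than in control (105 against 42.8 FPKM, log2 fold change 1.28, limma adjusted p = 0.00219) and lower in aged than in HFD (-0.91, adjusted p = 0.0131). Myeloid markers summed to 4.10 to 12.5 FPKM and muscle markers to 8.10 to 12.7 FPKM, with the muscle actin Acta1 at or under 0.393 FPKM. Sums of the erythroid, T cell, melanocyte and endothelial lists were at most 0.690, 1.11, 0.897 and 0.336 FPKM in any library. The part of these markers in the enzyme differences was not tested.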

How the data were processed

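RNA of sorted plantar epidermal basal cells had been sequenced in 9 libraries, and the deposited table gives 1 FPKM value per gene and library. Per the submitters' processing notes, the tools were cutadapt, STAR 2.6.0c, HTSeq 0.11.2 and DESeq2 1.30.0 with genome mm10; the notes used here give no order, and the gene lengths and strand setting are not given in the sources used here. The authors' FPKM values, divided by the value of 1 read over merged exons of the reference annotation (GRCm38), came out whole to within 0.02 for nearly all low genes, which gave the depth.

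Tests used limma 3.58.1 (R 4.3.3) on log2(FPKM + 1): genes averaging 1 FPKM or more across the 9 libraries (all 11 member rows passed), 1 model with a mean per group, trended variances, two-sided tests, Benjamini-Hochberg adjustment over all 10367 genes tested, and calls at an adjusted p under 0.05. Fold changes are on the log2(FPKM + 1) scale, which understates changes of low genes. The fit was tested on simulated data. All members are named. From each related list, up to 4 genes with the smallest F-test p and isoforms averaging 1 FPKM or more are named. Slc2a1, Slc2a12 and Egln2 were added because their HFD values had the other direction. The members and lists were chosen with earlier results of these data known. Same-numbered replicates are not said to share a source, so the samples were not treated as paired and no block was used. Correlations of same-numbered libraries ran from -0.052 to 0.274, against -0.286 to 0.218 for libraries of different number, which does not settle the pairing. Alternatives covered the pseudocount, filter, scaling, weights, replicate block, GC content and each library left out. Promoters came from RefSeq, and all 10 names matched. The single-cell data of the series were not used here.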

Additional observations from a re-analysis of the deposited data

Results flagged for a closer look

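The difference between aged and HFD libraries was itself tested for each gene, and 8 of the glycolytic, transport and hypoxia genes named above passed, so that their age and diet differences from the same control were unequal. Pgk1 (log2 fold change -0.32) and Pgam1 (-0.40) were the members among them, both lower in aged. Eno1 (-0.56), Slc16a1 (-0.35) and Hif1a (-0.43) were lower in aged as well. Aldoc (0.66), Pfkm (0.39) and Eno1b (2.64) were higher in aged. The log2 fold change of Eno1b rests on HFD libraries that ranged from 0.0197 to 3.38 FPKM. Of the cell markers named above, Ehf (-1.58), Acta2 (-1.50), Postn (-0.91) and Tgm3 (-0.50) were lower in aged than in HFD as well. Dcn (0.67) and Foxc1 (0.61, limma adjusted p = 0.0469) were higher. How far the calls of the cell markers depend on the settings is not given here. The age and diet effects share the control libraries. Among these genes, the calls of Pgk1 and Pgam1 were lost without single libraries as given above, that of Pfkm without HFD replicate 2 or 3 or aged replicate 1 or 2 (highest adjusted p 0.0811), that of Aldoc when HFD replicate 3 or aged replicate 1 was left out (highest 0.0559), and those of Slc16a1 (0.0533) and Hif1a (0.0596) without HFD replicate 3.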

How the results depend on the processing

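Of the recomputed member fold changes, 634 kept their direction and side of the threshold, 19 lost a call, 13 gained one and 24 changed sign, none of the last past the threshold. Members called in HFD against control numbered 5 with library weights or a GC correction and 1 to 5 with a library left out (1 without control replicate 2 or HFD replicate 2). In aged against control the count was 1 with the replicate block and 0 to 1 with a library left out. In aged against HFD it was 1 with no filter on low values or quantile normalization, and 0 to 2 with a library left out (0 without HFD replicate 1, aged replicate 1 or aged replicate 3). The F test called 5 members with library weights or the replicate block, and 0 to 5 with a library left out. Among all genes, calls in HFD against control fell to 1162 with the GC correction (749 to 2109 with a library left out), in aged against control to 461 with only the 6 libraries compared (300 to 1247), and in aged against HFD to 541 with no filter (379 to 782). The members' share of FPKM without mitochondrial and the 10 most abundant genes was 0.3895% in control, 0.4336% in HFD and 0.3867% in aged libraries, since the total is smaller. The share of the whole FPKM total was, with a library left out, 0.3153 to 0.3346%, 0.3522 to 0.3641% and 0.3221 to 0.3232% in the same order.

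Signs turned for small values only, and the cause was not tested. In HFD against control, Pkm was -0.024 with quantile normalization, and Hk1 was 0.125 with the GC correction (also when the replicate block was added) and -0.072 to 0.054 with a library left out. In aged against control, Aldoa was -0.048 with quantile normalization, -0.012 with scaling to total FPKM and -0.038 to 0.065 with a library left out. Ldha was -0.086, -0.029 and -0.048 to 0.080 under the same settings. Pgk1 was -0.001 with scaling to total FPKM and -0.038 to 0.105 with a library left out, Pkm was 0.027 with the GC correction, with or without the block, and Hk2 was -0.076 to 0.222 with a library left out. In aged against HFD, Gpi1 was -0.018 to 0.032 with a library left out. Same-numbered libraries correlated best with their own number in 5 of 9 libraries, a hint from the data and not from the design. Depth limits the second Aldoa row most, with 34 to 80.1 estimated fragments a library.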
